A study of Mus musculus with 9 samples.

Results

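The 10 adipokine genes, Adipoq, Retn, Lep, Cfd, Rbp4, Nampt, Rarres2, Apln, Angptl2 and Angptl4, were followed in mouse inguinal adipose stromal cells that were differentiated into white adipocytes with sodium alginate. They were chosen by name, as genes for proteins that fat cells secrete, and all 10 were found among the 41761 genes of the deposited table. Of these 10, 9 passed the filter on low values that 12635 genes passed, at least 1 FPKM (fragments scaled by gene length and library total) in at least 3 libraries. Lep did not pass. The cells were primary cells of wild type C57 mice, taken from inguinal white adipose tissue, the subcutaneous fat pad of the groin. They received 0, 50 or 100 µM sodium alginate, a polysaccharide from brown algae, from the start of induction until collection, with 3 libraries per dose. Every dose, 0 µM included, carried the same adipogenic medium of insulin at 1 µg/ml, dexamethasone at 1 µM and IBMX at 0.5 mM, and the treatment protocol adds rosiglitazone at 1 µM, an agonist of the nuclear receptor PPARγ, which the series' design text does not mention. The age and number of the mice were not given in the labels.

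The titles of the 100 µM libraries give 50 µM, while their treatment labels and library names give 100 µM, and the treatment labels were followed. Collection is given as day 6 in the titles and day 7 in the protocol. No label states whether libraries of 1 dose were grown or taken from mice separately. The p-values therefore cover only the spread among these libraries, and that spread may be technical. The libraries held 14019672 to 17094467 reads assigned to genes. Between replicates the counts differed by more than sampling noise, with a chi-square of 3.21 to 7.22 per gene. Library 3 at 50 µM stood apart on the second principal component, at -19.1 against -4.62 to 11.4 in the other 8, and 3.15% of its reads were from 69 ribosomal protein genes, against 2.71% and 2.64% in libraries 1 and 2 of that dose. It was the highest of its dose for 8 of the 9 tested adipokines, all but Angptl2, so results that rest on it are also given without it.

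Adipokines are proteins that adipose tissue releases into the blood or its own surroundings. Adiponectin (Adipoq) acts through the receptors AdipoR1 and AdipoR2 and raises insulin sensitivity, leptin (Lep) reports fat stores to the brain, and resistin (Retn) is in mice a product of adipocytes that opposes insulin. Adipsin (Cfd) is the serine protease that activates factor B of the alternative complement pathway, RBP4 carries retinol, and NAMPT is the rate-limiting enzyme of NAD salvage, also found outside cells. Chemerin (Rarres2) attracts immune cells through the receptor CMKLR1, apelin (Apln) acts on blood vessels and heart through APLNR, ANGPTL2 binds integrins, and ANGPTL4 inhibits lipoprotein lipase. Several of these genes, Adipoq and Angptl4 among them, are known targets of PPARγ.

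The label of mature white adipocytes was set against marker genes. Of 18 adipocyte markers 16 passed the filter. Lep and Pck1 did not, with means of 0.0192 and 1.11 FPKM at 100 µM and of 0 and 0.614 FPKM at 0 µM. The summed level of all 18 was 7606 to 7850 FPKM at 0 µM, 8429 to 8754 FPKM at 50 µM and 11295 to 11852 FPKM at 100 µM. The defining adipocyte genes were abundant: Fabp4 averaged 3633 ± 191 FPKM at 100 µM, against 2601 ± 76.2 at 0 µM, and Plin1 averaged 310 ± 6.70 FPKM at 100 µM, against 209 ± 0.247 at 0 µM (SD, n = 3 each). Genes of other cell types were present too. The 14 progenitor markers found, such as Pdgfra and Ly6a, summed to 1190 to 1252 FPKM at 0 µM, 1031 to 1173 FPKM at 50 µM and 744 to 838 FPKM at 100 µM. Macrophage markers summed to 163 to 177, 165 to 177 and 129 to 130 FPKM at the same 3 doses, and endothelial markers to 199 to 221, 197 to 213 and 168 to 172 FPKM. Smooth muscle and pericyte markers summed to 303 to 345, 305 to 357 and 213 to 232 FPKM, and mesothelial markers to 7.17 to 9.80, 8.65 to 11.8 and 4.41 to 5.18 FPKM. The macrophage genes Itgam and Ptprc, the endothelial gene Vwf and the mesothelial genes Msln and Upk3b stayed under the filter. Only 2 of 8 mesothelial markers passed it, Krt19 and Gpm6a, so the mesothelial sum is weak ground for the presence of such cells. All 16 adipocyte markers were called higher at 100 µM than at 0 µM, with a median log2 fold change of 0.65. Cidea among them averaged 0.489 FPKM at 0 µM, 0.956 at 50 µM and 1.82 at 100 µM. It may thus have passed the filter through the 100 µM libraries alone, and its call is weak support. Lower calls were made for 9 of 12 progenitor, 6 of 7 macrophage and 9 of 11 endothelial markers. Of all tested genes 18.3% were called higher and 15.6% lower. Of 9 smooth muscle and pericyte markers Cspg4 and Mcam were called higher and Acta2 and Tagln lower, and both measured mesothelial markers, Krt19 and Gpm6a, were lower. The part of these cell types in the adipokine values was not tested, and in bulk RNA fewer cells of a type and less RNA per cell cannot be told apart.

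Levels spanned a wide range at every dose. Adiponectin mRNA was by far the most abundant, with a mean over the 9 libraries that ranked 33 among the 12635 tested genes. Angptl4 ranked 384, Retn 620, Nampt 799 and Rbp4 1156, and Rarres2, Angptl2, Apln and Cfd followed at 2195, 3140, 3254 and 3400. At 0 and at 50 µM the order of mean levels was Adipoq, Angptl4, Retn, Nampt, Rbp4, Rarres2, Angptl2, Apln, Cfd, and the libraries of Angptl2 and Apln overlapped at both doses. At 100 µM Cfd stood above Angptl2 and Apln, and its libraries overlapped those of Rarres2. Other neighbours in the order did not overlap, and Lep came last at every dose. FPKM is scaled by the gene length of the deposited table. These levels can be set against each other only as far as that length holds for the transcripts present. The adipokines together summed to 991 ± 17.3 FPKM at 0 µM, 1075 ± 41.9 at 50 µM and 1396 ± 63.9 at 100 µM (SD, n = 3 each), or 0.322%, 0.347% and 0.430% of all FPKM. Adipoq alone made up 59.9%, 61.0% and 68.4% of that sum.

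**Figure D1:**
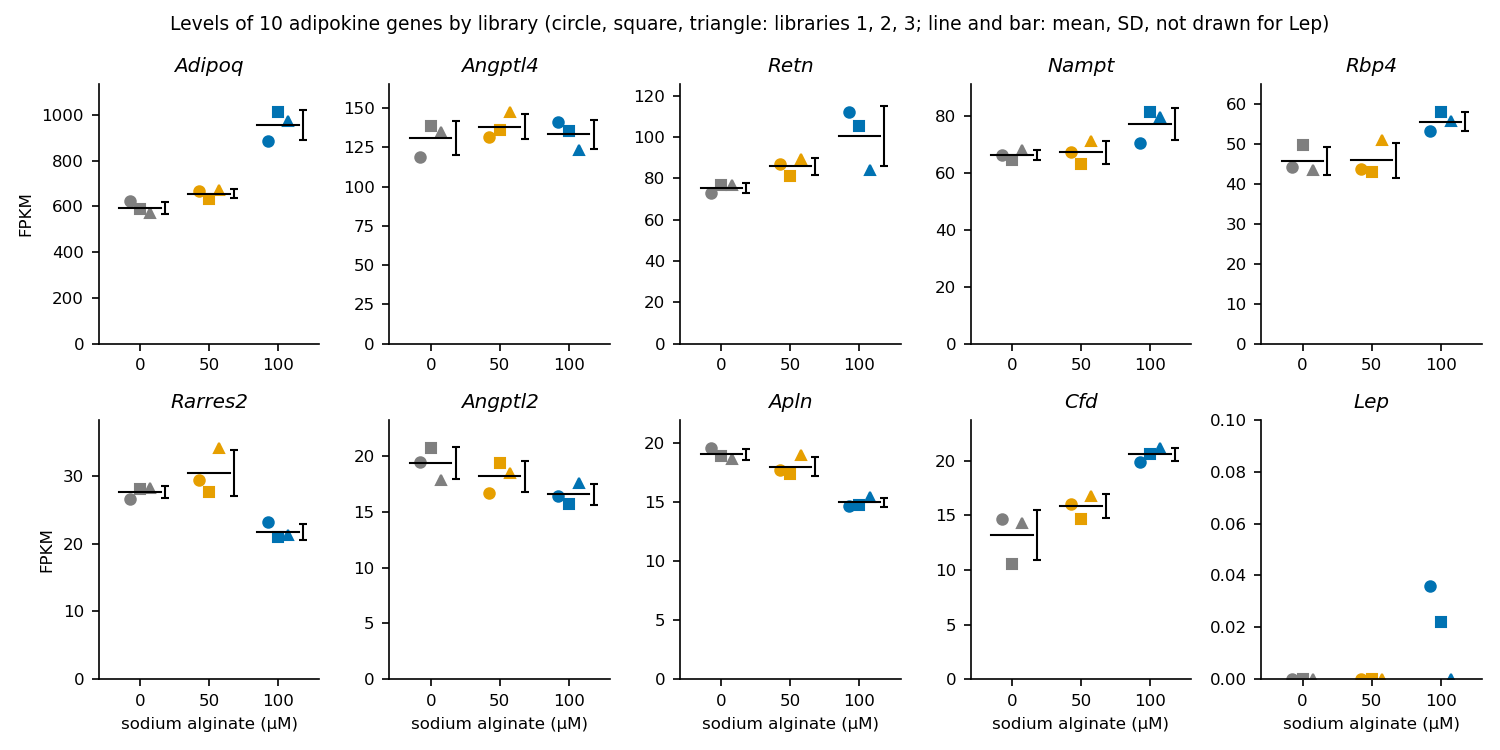
Level in FPKM (y axis, from 0, a scale of its own for each gene) of each of the 10 adipokine genes against the dose of sodium alginate (x axis, µM). Each symbol is a library, the line the mean and the bar the SD of 3 libraries. Adipoq, Retn, Cfd, Rbp4 and Nampt have their highest mean at 100 µM, Rarres2, Apln and Angptl2 their lowest, and Lep has reads in 2 libraries of 100 µM only.

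Beside 0 µM, 100 µM alginate went with higher levels of 5 adipokines and lower levels of 3. Adipoq, Cfd, Retn, Rbp4 and Nampt rose, Rarres2, Apln and Angptl2 fell, and Angptl4 was not called. The test was limma on log2(FPKM + 1), with p-values adjusted over all 12635 genes by Benjamini-Hochberg and a call below 0.05. The dose was one of broad change: 33.9% of all tested genes were called, 18.3% higher and 15.6% lower. For 8 of the 9 adipokines, all but Angptl4, the 3 libraries of 100 µM and the 3 of 0 µM did not overlap, against 47.9% of all tested genes. The median log2 fold change of the 9 was 0.22, and that of all tested genes was 0.01.

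Adipoq, the gene for adiponectin (MGP_C57BL6NJ_G0023096, chr16:21203019-21215045, plus strand, in the coordinates of the deposited table), showed the largest change of the 9. Its level was 622, 590 and 570 FPKM in the libraries of 0 µM, 665, 631 and 670 FPKM at 50 µM, while at 100 µM it was 884, 1011 and 972 FPKM. Every library of 100 µM lay above all 6 libraries of the lower doses. The mean at 100 µM was 1.61 times that at 0 µM. On the log2 scale Adipoq rose by 0.68 ± 0.0608 (SE; adjusted p = 5.46e-05 with limma). In each library between 11700 and 20368 reads lay behind the value.

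Cfd, the gene for adipsin (chr10:83228407-83230210, plus strand), had 14.6, 10.6 and 14.3 FPKM at 0 µM, then 16.1, 14.7 and 16.8 FPKM at 50 µM and 19.9, 20.7 and 21.2 FPKM at 100 µM. The 3 doses did not overlap, but 0 and 50 µM nearly touched. Library 1 of 0 µM had 14.65 FPKM from 196 reads, and library 2 of 50 µM had 14.70 FPKM from 218 reads. Library 2 of 0 µM lay well under the others of its dose. Cfd rose by 0.62 ± 0.107 on the log2 scale between 100 and 0 µM (SE; adjusted p = 0.0020 with limma), and the mean was 1.56 times as high at 100 µM. The ratio of Adipoq to Cfd was 46.0 ± 8.63 at 0 µM, 41.4 ± 1.55 at 50 µM and 46.4 ± 2.36 at 100 µM (SD, n = 3 each), and the libraries of 100 and 0 µM overlapped.

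Retn, the resistin gene (chr8:648344-652809, plus strand), had 72.7, 76.8 and 76.7 FPKM at 0 µM, then 87.0, 81.3 and 89.4 FPKM at 50 µM and 112, 105 and 84.1 FPKM at 100 µM. Libraries of both alginate doses lay above all 3 libraries of 0 µM, but library 3 of 100 µM fell within the range of 50 µM. Resistin mRNA at 100 µM rose over 0 µM by 0.40 ± 0.0932 in log2 units (SE; limma adjusted p = 0.00961). Of the 9 tested adipokines Retn varied most at 100 µM relative to its mean, 100.4 ± 14.5 FPKM (SD, n = 3).

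Rbp4, the retinol carrier (chr19:38201352-38210041, minus strand), had 44.1, 49.7 and 43.3 FPKM at 0 µM, then 43.6, 42.9 and 50.9 FPKM at 50 µM and 53.1, 57.9 and 55.6 FPKM at 100 µM. The 2 lower doses shared 1 range, and every library of 100 µM lay above both. At 100 µM against 0 µM it rose by 0.28 ± 0.0755 in log2 units (SE; limma adjusted p = 0.0198). The Rbp4 call was lost in 5 of 17 alternatives, with a limma adjusted p of 0.00478 to 0.0707 over all 17. These were the authors' scaling removed (0.0641), quantile normalization (0.0514) and 3 fits with 1 library left out. Those left out library 1 of 0 µM (0.0631), library 3 of 0 µM (0.0707) or library 2 of 100 µM (0.0686). Nampt (chr12:31782704-31816635, plus strand) had 66.0, 64.4 and 67.9 FPKM at 0 µM, then 67.3, 63.1 and 71.1 FPKM at 50 µM and 70.5, 81.2 and 79.5 FPKM at 100 µM. Library 1 of 100 µM lay just above the libraries of 0 µM and inside the range of 50 µM. At 100 µM against 0 µM Nampt rose by 0.22 ± 0.0628 in log2 units (SE; limma adjusted p = 0.0262), the smallest of the 5 increases. The Nampt call was lost in 8 of 17 alternatives, among them quantile normalization (adjusted p = 0.335) and a common sum per library (0.122), with a range of 0.00568 to 0.335. A non-coding gene on the same strand, Gdap10 at 3.03 FPKM, overlaps 5015 bases of Nampt, and how such reads were assigned is not given.

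The 3 decreases were of 21.2% of the mean at 0 µM for Rarres2, 21.5% for Apln and 14.4% for Angptl2. Rarres2, the chemerin gene (chr6:48638185-48641278, minus strand), had 26.6, 28.1 and 28.1 FPKM at 0 µM, then 29.4, 27.5 and 34.1 FPKM at 50 µM and 23.1, 20.9 and 21.2 FPKM at 100 µM. All libraries of 100 µM lay under all others, and those of 50 and 0 µM overlapped, with library 3 of 50 µM the highest. Chemerin mRNA at 100 µM against 0 µM changed by -0.33 ± 0.0747 in log2 units (SE; limma adjusted p = 0.00804). Lrrc61, at 1.83 FPKM on the opposite strand, overlaps 1027 bases of Rarres2.

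Apln, the apelin gene (chrX:44185432-44196230, minus strand), had 19.6, 18.9 and 18.7 FPKM at 0 µM, then 17.7, 17.4 and 19.0 FPKM at 50 µM and 14.7, 14.8 and 15.4 FPKM at 100 µM. Its libraries of 100 µM sat close together, under every library of the other doses, while 50 and 0 µM overlapped. Apln changed by -0.33 ± 0.0457 in log2 units at 100 µM against 0 µM (SE; limma adjusted p = 0.000598). Angptl2 (chr2:32670536-32702196, plus strand) had 19.5, 20.8 and 17.9 FPKM at 0 µM, then 16.7, 19.4 and 18.5 FPKM at 50 µM and 16.4, 15.8 and 17.6 FPKM at 100 µM. The highest library of 100 µM was just under the lowest of 0 µM. The log2 fold change was -0.21 ± 0.0715 (SE; limma adjusted p = 0.0470), and the call was lost in 7 of 17 alternatives, with an adjusted p of 0.0128 to 0.149. Angptl2 lies within Ralgps1, a gene of the opposite strand at 1.14 FPKM, and the counting is not stated to use strand.

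Angptl4, the inhibitor of lipoprotein lipase (chr17:34953075-34960900, minus strand), had 119, 139 and 135 FPKM at 0 µM, then 132, 136 and 147 FPKM at 50 µM and 141, 135 and 123 FPKM at 100 µM. The 3 doses overlapped throughout. The log2 fold change of 100 µM against 0 µM was 0.03, with a 95% interval of -0.14 to 0.20 (limma adjusted p = 0.817), and its sign differed under 3 other scalings (-0.05, -0.04 and -0.09), never with a call. The ratio of Adipoq to Angptl4 was 7.21 ± 0.850 at 100 µM and 4.57 ± 0.586 at 0 µM (SD, n = 3 each).

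Lep, the leptin gene (chr6:27615813-27629766, plus strand), was close to undetected. It had 0 reads in all libraries of 0 and 50 µM, and 2, 1 and 0 reads in those of 100 µM, which are 0.0358, 0.0219 and 0 FPKM. A count of 0 allows up to 3 reads, or 0.0531 to 0.0617 FPKM in the libraries with 0 reads, for counting error alone. No difference between doses was detectable at this depth, and no fold change is given.

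**Figure D2:**
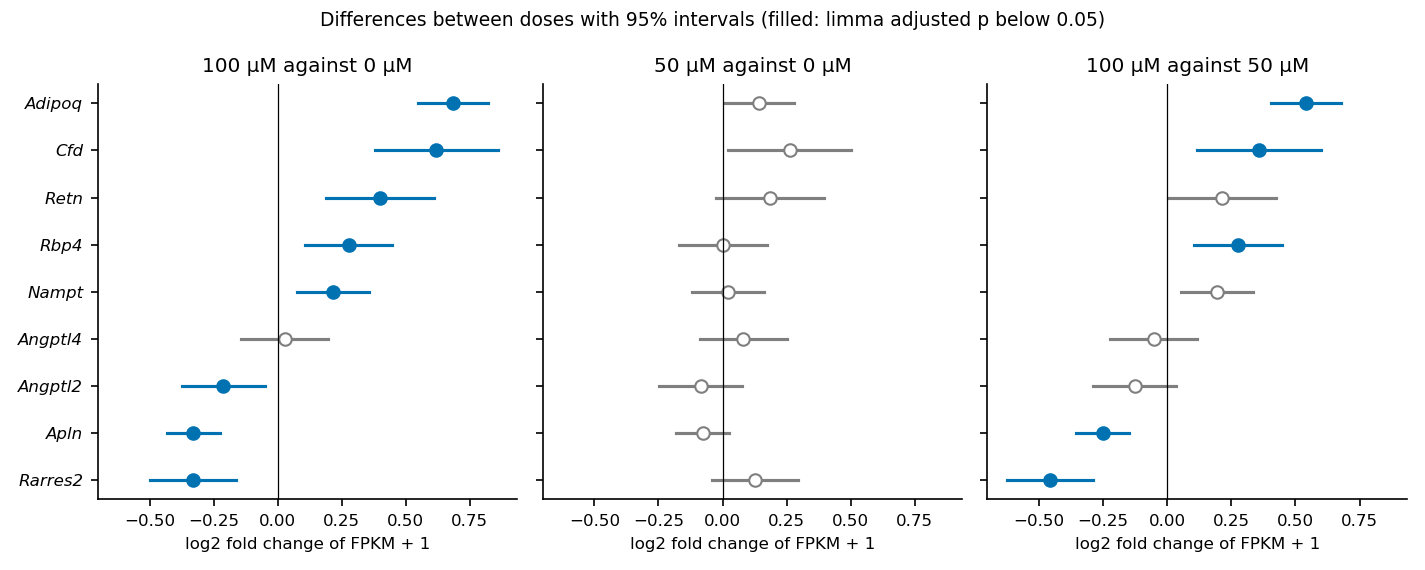
Log2 fold change of FPKM + 1 (x axis) of the 9 tested adipokines (y axis) in 3 comparisons of sodium alginate doses, with 95% intervals. Filled points passed limma's adjusted p of 0.05. At 100 µM against 0 µM 8 of 9 points are filled, at 50 µM against 0 µM 0, and at 100 µM against 50 µM 5.

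Promoters of 5 adipokines that moved at 100 µM are shown as examples, 4 that were higher and 1 that was lower. Nampt and Angptl2 were also called and had an entry, but their sequences are not printed. Each sequence is from RefSeq on GRCm38.p6, 300 bases that run 5′ to 3′ on the gene's strand from 250 bases before the annotated start, and capitals mark the motifs found. Those searched were the nuclear receptor half-site AGGTCA, a C/EBP site TTGCNNAA, the E-box CANNTG, the TATA box TATAAA and the CCAAT box, each on both strands, and the PPAR/RXR site DR1, which is 2 copies of AGGTCA with any 1 base between. Of the 10 genes 8 had an entry. The set runs from Adipoq (chr16:23146286-23146585, plus strand), Cfd (chr10:79890603-79890902, plus), Retn (chr8:3655520-3655819, plus) and the second of 2 Rbp4 starts (chr19:38124762-38125061, minus), which were higher at 100 µM, to Apln (chrX:48034804-48035103, minus), which was lower.
Adipoq: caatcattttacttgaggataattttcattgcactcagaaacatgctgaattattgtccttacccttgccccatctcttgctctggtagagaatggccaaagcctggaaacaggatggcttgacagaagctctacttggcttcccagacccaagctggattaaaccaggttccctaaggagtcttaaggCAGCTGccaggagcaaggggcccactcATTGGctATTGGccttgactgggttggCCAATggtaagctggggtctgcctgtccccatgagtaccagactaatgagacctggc
Cfd: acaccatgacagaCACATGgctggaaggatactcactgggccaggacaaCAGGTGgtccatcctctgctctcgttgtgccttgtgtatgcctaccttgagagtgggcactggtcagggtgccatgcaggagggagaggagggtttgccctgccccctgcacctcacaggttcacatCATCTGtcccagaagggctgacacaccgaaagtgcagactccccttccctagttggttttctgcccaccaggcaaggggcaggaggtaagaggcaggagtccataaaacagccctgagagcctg
Retn: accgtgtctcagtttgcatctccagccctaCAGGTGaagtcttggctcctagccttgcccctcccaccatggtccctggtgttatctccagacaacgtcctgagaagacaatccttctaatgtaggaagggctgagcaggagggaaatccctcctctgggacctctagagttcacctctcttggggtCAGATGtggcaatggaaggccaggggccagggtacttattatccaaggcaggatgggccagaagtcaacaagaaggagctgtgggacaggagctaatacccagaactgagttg
Rbp4: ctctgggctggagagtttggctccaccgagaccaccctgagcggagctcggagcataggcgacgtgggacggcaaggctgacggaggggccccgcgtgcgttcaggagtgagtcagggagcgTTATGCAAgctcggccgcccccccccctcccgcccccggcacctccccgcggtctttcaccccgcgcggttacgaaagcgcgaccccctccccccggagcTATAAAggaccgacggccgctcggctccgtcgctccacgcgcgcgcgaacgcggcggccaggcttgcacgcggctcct
Apln: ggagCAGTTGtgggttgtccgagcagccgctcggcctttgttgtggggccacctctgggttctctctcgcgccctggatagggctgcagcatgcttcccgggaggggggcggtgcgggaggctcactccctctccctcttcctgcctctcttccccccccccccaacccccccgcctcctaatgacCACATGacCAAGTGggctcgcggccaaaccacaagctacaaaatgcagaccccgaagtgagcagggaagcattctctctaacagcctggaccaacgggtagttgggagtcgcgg

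The Adipoq promoter held 3 CCAAT boxes, at -34 to -30, -27 to -23 and -7 to -3 from the start, the first 2 of them on the reverse strand. CCAAT was otherwise in the first start of Rbp4, and 37.4% of 32851 RefSeq promoters of this length held it. The Rbp4 start shown held TATAAA at -28 to -23, a motif in 13.6% of all promoters, and a C/EBP match on the reverse strand at -128 to -121. The first start of Rbp4 held neither, and values per gene do not tell which start these cells used. The C/EBP motif was also in the Lep promoter and in 10.8% of all. E-boxes were in all 8 matched genes and in 72.3% of all promoters, and the half-site was in Nampt and in 16.3% of all. No start of the 8 genes held DR1, with 0 mismatches (0.0396% of all promoters) or with up to 2 (3.86%). A match is a description of letters and not of binding, and no match speaks only of these 300 bases.

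Beside 0 µM, 50 µM alginate gave no call among the 9 adipokines, and 0.791% of all tested genes were called. Adipoq and Cfd had an unadjusted p under 0.05 with limma, as had 1814 of the 12635 tested genes. Adipoq averaged 656 ± 21.2 FPKM at 50 µM and 594 ± 26.7 FPKM at 0 µM (SD, n = 3 each), which is 0.14 in log2 units with a 95% interval of 0.01 to 0.28 (adjusted p = 0.326 with limma). For Cfd the log2 fold change was 0.26, with an interval of 0.02 to 0.50 (limma adjusted p = 0.306). Retn, at 0.18 (limma adjusted p = 0.410), was the third gene whose libraries of 50 µM all lay above those of 0 µM, a separation that 20.7% of all tested genes had in one direction or the other. For Cfd that margin was only 14.70 against 14.65 FPKM. The other 6 had log2 fold changes from -0.08 to 0.13. A count model on reads rebuilt from the FPKM, voom, called none of the 9 either, and leaving out library 3 of 50 µM gave none. In the same comparison 3 of 16 adipocyte markers, Lipe, Cidec and Plin1, were called higher and 2 of 12 progenitor markers, Pdgfra and F3, lower. These calls were among 100 over all tested genes, a count that came to 0 or 1 when any 1 library of 0 µM was left out.

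Beside 50 µM, 100 µM alginate was called for 5 of the 9: Adipoq, Cfd and Rbp4 rose, and Rarres2 and Apln fell. Of all tested genes 25.1% were called in this comparison, 13.2% higher and 12.0% lower, and the same 5 adipokines had no overlap between the libraries, against 40.4% of all tested genes. The log2 fold changes were 0.54 for Adipoq (limma adjusted p = 0.000431), 0.36 for Cfd (0.0373), 0.28 for Rbp4 (0.0269), -0.46 for Rarres2 (0.00242) and -0.25 for Apln (0.00409). Nampt, with 0.19 (limma adjusted p = 0.0501), Retn, with 0.21 (0.130), Angptl2, with -0.13 (0.233), and Angptl4, with -0.05 (0.644), were not called. Without library 3 of 50 µM, Cfd was not called (limma adjusted p = 0.0553) and Nampt was called (0.0403). The call of Cfd was lost in 10 of 17 alternatives (adjusted p 0.00295 to 0.115) and that of Rbp4 in 6 (0.0059 to 0.0897). This comparison shares its 100 µM libraries with that of 100 µM against 0 µM.

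Adipoq and Rarres2 at 50 µM lay furthest from the midpoint between 0 and 100 µM. Adipoq differed from it by -0.20 ± 0.0527 on the log2 scale (SE; adjusted p = 0.0965 with limma) and Rarres2 by 0.29 ± 0.0647 (SE; adjusted p = 0.0605 with limma). Neither passed the adjusted threshold, which 1.49% of all tested genes passed. These 2 were the adipokines with an unadjusted limma p under 0.05, as had 2281 of the 12635 tested genes. Other scalings did call Rarres2, with a limma adjusted p of 0.0369 at a common sum per library, 0.0434 without the authors' factor and 0.0430 under quantile normalization, and voom called Rarres2 (0.00627) and Adipoq (0.0131). Over 16 alternatives the adjusted p ran from 0.00627 to 0.167 for Rarres2 and from 0.0131 to 0.499 for Adipoq. Rarres2 averaged 30.4 ± 3.39 FPKM at 50 µM (SD, n = 3), and its mean was 28.5 FPKM without library 3 of that dose. Without that library its difference from the midpoint was 0.21 (adjusted p = 0.167 with limma), and that of Adipoq was -0.22 (0.209).

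Set against the adipocyte markers of the same library, most adipokines were lower at 100 µM. The measure was log2(FPKM + 1) of the gene minus the median of the 16 adipocyte markers in that library. Adipoq lay at 1.86 at 0 µM, 1.72 at 50 µM and 1.90 at 100 µM, and Cfd at -3.54, -3.57 and -3.57, so that for both the libraries of 100 and 0 µM overlapped. The other 7 were lower relative to the markers at 100 µM than at 0 µM with no overlap. Among these were Retn, at -1.35 and -1.10, Rbp4, at -2.18 and -1.81, and Nampt, at -1.72 and -1.28, whose own levels rose. Angptl4, whose FPKM was not called, lay at -0.93 and -0.31 on this scale, and Apln at -4.00 and -3.03. A lower position without overlap was shared by 89.2% of all tested genes, so 7 of 9 is not a result about adipokines. The part of the marker genes' own rise in the adipokine values was not tested.

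**Figure D3:**
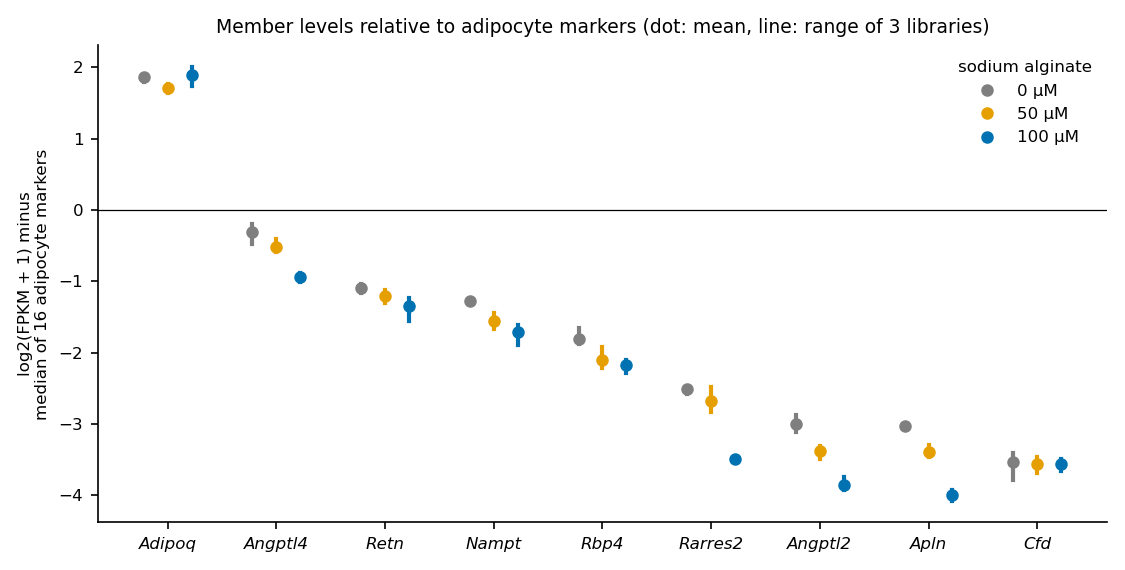
Level of 9 adipokines relative to the adipocyte markers (y axis, log2(FPKM + 1) of the gene minus the median of 16 markers in the same library) at 0, 50 and 100 µM sodium alginate. Dots are means and lines the range of 3 libraries. Adipoq lies at 1.86, 1.72 and 1.90 and Cfd at -3.54, -3.57 and -3.57 over the 3 doses, and the other 7 have their lowest mean at 100 µM.

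Ratios between adipokines of one library are given as descriptions, with no test. The ratio of Adipoq to Rarres2 was 44.1 ± 5.24 at 100 µM and 21.5 ± 1.64 at 0 µM, and that of Retn to Apln was 6.73 ± 1.13 at 100 µM and 3.96 ± 0.217 at 0 µM (SD, n = 3 each). In both ratios the libraries of 100 and 0 µM did not overlap. That follows from a numerator that was higher and a denominator that was lower without overlap, and it is no further result. The ratio of Angptl4 to Angptl2 was 8.06 ± 0.911 at 100 µM and 6.77 ± 0.736 at 0 µM, with overlapping libraries. The ratio of Adipoq to Retn overlapped too, at 9.69 ± 1.83 and 7.89 ± 0.594.

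The genes around the adipokines were read from lists of receptors, partners and relatives, at 100 µM against 0 µM. Each count here and in the next paragraphs stands beside 18.3% of all tested genes called higher and 15.6% lower. No list was tested as a set. Of 9 measured genes of the receptor list, 2 rose, Adipor2 and Insr, and 5 fell, with a median log2 fold change of -0.25. Adipor2, the adiponectin receptor tied to PPARα signalling, rose to 178 ± 1.28 FPKM at 100 µM, against 123 ± 3.35 FPKM at 0 µM (SD, n = 3 each; log2 fold change 0.53, limma adjusted p = 8.48e-05). Adipor1 was not called, at 27.8 ± 0.734 and 27.0 ± 0.987 FPKM. The insulin receptor Insr, counted in this list although its ligand is insulin, rose by 0.37. The integrins Itga5 (-0.64) and Itgb1 (-0.32), which bind ANGPTL2, fell, as did Cmklr1 (-0.41), the chemerin receptor, Cdh13 (-0.28), a cadherin that binds adiponectin multimers, and Cap1 (-0.16), a resistin receptor described in human cells. Lepr was not called (-0.25), and Stra6, Gpr1 and Aplnr, the receptors for RBP4, chemerin and apelin, stayed under the filter.

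Adiponectin leaves the cell as disulphide-linked multimers whose collagen-like part is hydroxylated and glycosylated. Of 11 measured genes of this assembly and secretion list, 2 rose and 6 fell (median -0.18). Ero1l, an oxidase that helps to form disulphide bonds and to release adiponectin, rose by 0.36 (limma adjusted p = 0.000378), and Sort1, a sorting receptor, by 0.51 (5.08e-05). The lysyl hydroxylases Plod1 and Plod2 fell, with log2 fold changes of -0.42 and -0.55, and Erp44, which retains adiponectin in the secretory pathway, with -0.21 (limma adjusted p = 0.0188). Adipoq itself was the 1 higher gene among 9 measured members of the C1q/TNF family, and 6 fell (median -0.33), among them Emilin2 (-0.60), Emilin1 (-0.47) and C1qtnf1 (-0.49). C1qc and C1qb, complement genes of macrophages, were also among these 6 and fell beside the macrophage markers. The part of that cell type in their values was not tested.

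In the alternative complement pathway, of 9 measured genes 1 rose, Cfd, and 2 fell, beside 18.3% higher and 15.6% lower among all tested genes. The receptor genes C5ar1 (-0.31) and C3ar1 (-0.33), which macrophages carry, fell. C3, the substrate of the pathway, was not called, with 163 ± 12.4 FPKM at 100 µM against 154 ± 8.86 at 0 µM (SD, n = 3 each), nor was Masp1 (-0.26), and Cfb, whose product adipsin cleaves, stayed under the filter. Around RBP4 the retinoid genes were split: of 11 measured, 5 rose and 3 fell (median 0.28). The enzymes Retsat (0.37), Rdh11 (0.47), Dhrs3 (0.28) and Dhrs9 (0.48) rose with Rbp4. Aldh1a1 (-0.43) and Aldh1a2 (-0.59), which make retinoic acid, fell, as did the receptor Rara (-0.30).

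In the NAD list 10 of 17 measured genes, Nampt itself among them, were higher and 1 lower, with a median of 0.22. Nnmt (0.25) and Parp1 (0.22) were also among the 10, and Parp1 lost its call at a common sum per library. The list joins genes that make NAD with genes that use it, so these counts give no direction for NAD itself. Slc25a51, which carries NAD into mitochondria, rose by 0.41 (limma adjusted p = 0.00012), Sirt3 by 0.58 (0.00121) and Sirt5 by 0.47 (0.00163). These 2 are NAD-dependent enzymes of the mitochondrion. Cd38, an enzyme that degrades NAD, was the 1 that fell, at -0.47 (adjusted p = 0.000438 with limma). Sirt1 and Sirt2 were not called, at 0.04 and 0.10. Across the 4 other scalings 8 to 10 of these genes were higher and 1 or 2 lower.

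All 5 measured genes of the chemerin list fell (median -0.33): Rarres2, its receptor Cmklr1 and the cathepsins Ctsk (-0.56), Ctsl (-0.29) and Ctss (-0.31), proteases that can process chemerin. Ctss is abundant in macrophages, whose markers also fell, and the part of that cell type was not tested. Of 4 measured genes of the apelin system, Apln and Hif1a fell. Hif1a, which activates Apln under low oxygen, reached 45.9 ± 0.283 FPKM at 100 µM, against 65.0 ± 4.89 FPKM at 0 µM (SD, n = 3 each; log2 fold change -0.49, limma adjusted p = 0.000158). Furin, a convertase, and Mme, a peptidase, were not called (-0.13 and -0.12).

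Among 7 measured angiopoietins and angiopoietin-like genes, 2 rose and 2 fell (median -0.13). Angptl8, which acts with its relatives on lipoprotein lipase, rose by 0.55 and Angptl6 by 0.41, while Angpt2, a vascular ligand, fell beside Angptl2 with -0.36. Angpt2 was also called lower at 50 µM than at 0 µM (-0.25, limma adjusted p = 0.0336), where 0.791% of all tested genes were called. These calls numbered 100 over all genes, and 0 or 1 when any 1 library of 0 µM was left out, so that of Angpt2 is weak. Lpl, the enzyme that Angptl4 inhibits, rose to 1776 ± 47.0 FPKM at 100 µM, against 1358 ± 27.8 FPKM at 0 µM (SD, n = 3 each; log2 fold change 0.39, limma adjusted p = 0.00029). In its list of 9 measured genes 3 rose, Lpl, Angptl8 and Apoc1 (0.66), and 2 fell, the syndecan Sdc4 (-0.47) and the lipase maturation factor Lmf2 (-0.27). In the resistin family Retn rose, Retnla was not called (0.28) and Retnlb and Retnlg were listed at 0.

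**Figure D4:**
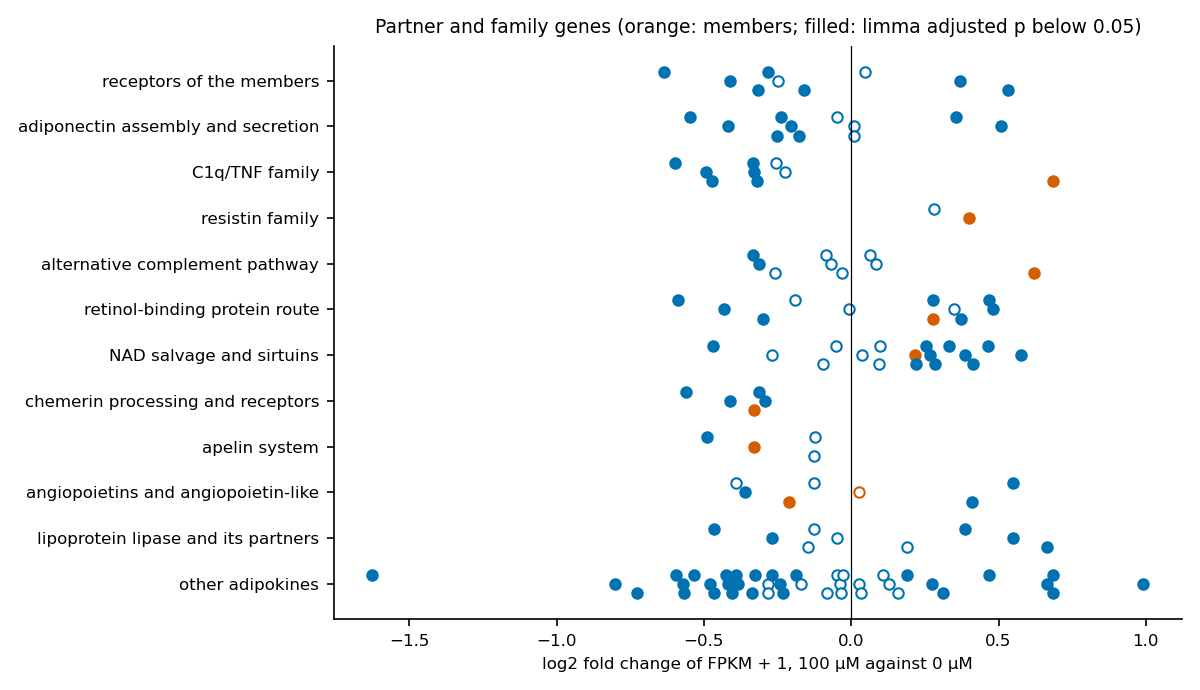
Log2 fold change of FPKM + 1 at 100 µM against 0 µM (x axis) of the tested genes of 12 lists (y axis) of receptors, partners and relatives. Orange points are adipokines described here, and filled points passed limma's adjusted p of 0.05. All 5 genes of the chemerin list lie left of 0, and most NAD genes right of it.

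Other known adipokines were read from a list of their own. Of 41 measured at 100 µM against 0 µM, 8 rose and 20 fell, with a median of -0.23, beside 18.3% higher and 15.6% lower among all tested genes. The chemokine Cxcl14 fell to 9.13 ± 0.932 FPKM at 100 µM, against 30.2 ± 1.55 FPKM at 0 µM (SD, n = 3 each; log2 fold change -1.63, limma adjusted p = 1.55e-05). Wisp2 (-0.80), a product of progenitors, the follistatin-like Fstl1 (-0.73) and the matrix protein Thbs1 (-0.57) fell with it. These 3 genes are also made by stromal cells, and the progenitor markers fell in the same libraries; the part of those cells was not tested. At 50 µM against 0 µM, 1 of the 41 rose, Orm1 (1.10), and 5 fell, Igfbp3 (-0.35), Adm (-0.39), Gpx3 (-0.40), Ccdc80 (-0.26) and Saa3 (-0.64), beside 0.791% of all tested genes called. Orm1 averaged 0.899 FPKM at 0 µM, under the 1 FPKM of the filter. Over all genes those calls came to 0 or 1 when any 1 library of 0 µM was left out, and to 0 with only these 2 doses in the fit. Of 13 transcription factors with known sites in adipokine genes, 6 rose and 3 fell at 100 µM. Cebpa and Pparg, the core regulators of the adipocyte, rose by 0.63 and 0.40 and Srebf1, a regulator of lipid synthesis, by 0.61, while Hif1a (-0.49), Epas1 (-0.18) and Nfkb1 (-0.22) fell.

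Genes with the most similar course over the 9 libraries were sought for each adipokine among 7165 genes, by Pearson's r of log2(FPKM + 1). All libraries share the 3 doses, so for genes that differ between doses r can describe mostly the dose means. The closest genes were picked from 7165 over 9 libraries, which by itself favours a high r, and r carries no test. Adipoq was closest to Reep6 (r = 0.998) and Gyg (0.994), and Retn to Mpst (0.992) and Psma7 (0.979). For Cfd these were Eif4e (0.981) and Actr1a (0.976), for Rbp4 Cnih4 (0.973) and Wbp2 (0.961), and for Nampt Abce1 (0.976) and Eif1ax (0.971). Among those that fell, Apln was closest to Rhoj (0.987) and Mfap5 (0.985), Rarres2 to Bax (0.981) and Gopc (0.975), and Angptl2 to Lrp5 (0.954) and Dnmt1 (0.939). Angptl4 was closest to Ddx39 (0.937) and Cdkn2d (0.933). The doses of Angptl4 overlapped, and these genes had log2 fold changes of 0.0018 and 0.0323 at 100 µM against 0 µM. Here r describes variation between single libraries more than a change with dose.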

How the data were processed

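Total RNA of primary adipose cells was sequenced after differentiation at 3 doses of sodium alginate, with 3 libraries per dose, prepared with a SMARTER mRNA-seq kit per the labels' protocols. The deposited values are FPKM per gene, made by the authors from paired-end reads. The submitters' processing notes name GRCm38 and mm10, while the identifiers per the file header are those of the C57BL/6NJ strain; aligner, counter and strand use: not given in the sources used here. FPKM times gene length came out as whole reads, within 0.01 read, for 100% of values, and gave the depths; the authors' scaling total was 1.01 to 1.03 times the reads at 0 µM, 1.02 times at 50 µM and 0.969 to 0.976 times at 100 µM, which raises FPKM at 100 µM. Rebuilt reads entered an alternative, not the main test.

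Genes that reached 1 FPKM in 3 or more of the 9 libraries were tested with limma 3.58.1 in R 4.3.3, with a trend, on log2(FPKM + 1) with 1 mean per dose; fold changes of low genes are understated on this scale. P-values were two-sided and adjusted by Benjamini-Hochberg over all genes, with a threshold of 0.05. The test was tried on simulated counts with known changes. The 17 alternatives changed the pseudocount, the filter, the scaling, the model, the libraries in the fit or the library number as a block. Intervals and floors cover counting or library error only. Genes named from a list are those with the 4 smallest p at 100 µM against 0 µM, any behind a count of 5 or fewer, and receptors, substrates or partners of a described adipokine picked after their values were seen. Cidea and Rxra are named for a limit on their calls, and Nnmt and Parp1 to show more of the NAD list. The genes and lists were chosen with earlier results of these data known. Promoters are from RefSeq, GRCm38.p6. No sample or column was left out; 1 gene of the retinoid list is not reported here.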

Additional observations from a re-analysis of the deposited data

How the results depend on the processing

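Adipoq, Cfd, Retn, Rarres2 and Apln kept their direction and their call at 100 µM against 0 µM in all 17 alternatives. The 8 adipokines called there came to 5 to 8 when 1 library was left out, with 5 without library 1 of 0 µM or library 2 of 100 µM, where Rbp4, Nampt and Angptl2 were lost. At 100 µM against 50 µM the 5 called came to 3 with no filter, 3 without the authors' factor, 3 to 5 with 1 library left out (3 without library 1 or 2 of 50 µM or library 2 of 100 µM), and Adipoq, Rarres2 and Apln were called throughout. Against the midpoint 1 adipokine, not 0, was called at a common sum, without the factor and under quantile normalization, and 2 with voom. Of all genes, 100 were called at 50 µM against 0 µM, with 12 with no filter, 62 at a common sum, 348 with voom, 0 with only these doses in the fit, and 0 to 112 with 1 library left out (1, 0 and 1 without library 1, 2 or 3 of 0 µM, 40, 0 and 13 without those of 50 µM, and 53 without library 2 of 100 µM); against the midpoint 188 were called, with 2 with no filter, 318 without the factor, 689 with voom and 0 to 151 with 1 library left out (0, 81 and 0 without those of 0 µM, 1 and 3 without library 2 or 3 of 50 µM, and 6 and 9 without library 2 or 3 of 100 µM). Same-numbered libraries of different doses were no more alike than others. The correlation of deviations was -0.0941 to 0.0412 over 9 same-numbered pairs and -0.0814 to 0.0983 over 18 other pairs. With 3 libraries per dose this cannot tell whether cultures or mice were shared. With the replicate block the counts over all genes were 0 at 50 µM against 0 µM and 7 against the midpoint. With that block 7 of 9 adipokines were called at 100 µM against 0 µM. Calls at 100 µM against 0 µM split into 2314 higher and 1965 lower, but 1593 and 2654 at a common sum and 1730 and 2660 without the factor; against 50 µM into 1663 and 1510, but 982 and 1966, and 1101 and 2181. At 50 µM against 0 µM the split was 45.0% higher, and 30.8% under quantile normalization. No called gene of a list changed sign under the 4 other scalings except Fabp4, at 0 under quantile normalization. Some calls were lost, among them Mcam at a common sum, without the factor and under quantile normalization (limma adjusted p = 0.140, 0.0937 and 0.0502). Rxra, counted among the transcription factors that rose, lost its call in the same scalings, and Rara under quantile normalization (limma adjusted p = 0.0639). The cause of these differences was not tested.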
